A study of Homo sapiens with 4 samples.

Results

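SNARE proteins are the membrane fusion proteins of the secretory and endocytic pathways, and the transcripts of 35 SNARE genes were followed here, out of 58174 genes in the table of read counts. The members were chosen by name: 10 act mainly at the plasma membrane, 9 at endosomes, lysosomes and autophagosomes, 11 at the Golgi apparatus and trans-Golgi network, and 5 at the endoplasmic reticulum (ER). The study sequenced RNA of 2 established human pancreatic cancer cell lines, SW1990 and PANC-1, at passage 14-16. Each line was either unirradiated or irradiated with X-rays at 10 Gy, and every line and treatment had 1 library, 4 in all. The time between radiation and RNA extraction was not given in the sources used here. No other agent or allele was named for any group. The total counts for SW1990 were 17939210 without and 18388969 with radiation, and those for PANC-1 were 23451153 and 20154644.

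A fusion reaction needs a bundle of SNARE helices, some on the vesicle and some on the target membrane, which zip together and pull the bilayers into contact. The helices are sorted by the residue at the centre of the bundle into the glutamine classes Qa, Qb and Qc and the arginine class R, and a working bundle holds one of each. SNAP23 and its relatives carry both a Qb and a Qc helix and are called Qbc. In secretory epithelia such as the exocrine pancreas, SNAREs carry out granule release at the apical membrane, and the same families act in exosome release, autophagy and Golgi traffic.

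The lines were checked against markers of the cell types they could hold, in FPKM (the fragments of a gene scaled to its transcript length and to the mapped fragments of the library). KRT8, a keratin of simple epithelia and the most abundant of 6 epithelial markers, was at 1352 and 1888 FPKM in the unirradiated and irradiated libraries of SW1990 and at 786 and 851 FPKM in the PANC-1 cells. EPCAM was at 217 and 218 FPKM in SW1990 cells and at 2.28 and 2.81 FPKM in PANC-1 cells. VIM, the intermediate filament of mesenchymal cells, was at 0.626 and 0 FPKM in SW1990 cells and at 1627 and 1650 FPKM in PANC-1 cells. Both lines thus carried epithelial keratins, and the PANC-1 libraries were low in EPCAM and high in VIM. Summed FPKM over 5 acinar markers was at most 0.604 in any library, with 3 of them at 0 in all libraries. Summed FPKM over 7 neuroendocrine and neuronal markers was at most 4.23, with CHGA, INSM1 and STMN2 at 0 and SYP highest. Of 5 haematopoietic markers, CD68 was the most abundant and reached 18.8 FPKM in unirradiated PANC-1 cells, while CD3E was at 0. Summed FPKM was at most 0.309 over 3 endothelial markers and at most 11.6 over 4 fibroblast markers, of which COL1A1 was highest.

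Of the 35 SNARE transcripts, YKT6, STX3, VAMP3, VAMP8, STX1A and BET1L had the highest mean FPKM over the 4 libraries, and SNAP25 the lowest. The summed FPKM of all 35 was 561 in both SW1990 libraries, and 628 and 632 in those of PANC-1. The summed FPKM is a level per length, which allows genes to be compared. Between libraries it is scaled to the mapped fragments alone, so comparisons of libraries depend on that scaling. R-SNAREs made up 26.5% and 29.2% of the summed FPKM in SW1990 cells and 38.2% and 39.6% in PANC-1 cells. The Qa-SNAREs made up 36.7% and 37.3% in SW1990 cells and 28.9% and 27.3% in PANC-1 cells. The Golgi group held 33.0%, 37.0%, 34.8% and 35.3% of the sum, and the plasma membrane group 25.5%, 25.3%, 26.6% and 24.5%, in unirradiated SW1990, irradiated SW1990, unirradiated PANC-1 and irradiated PANC-1 cells, in the order used for 4 values throughout. The shares of compartments were thus similar across the libraries, whereas both PANC-1 libraries had a higher R share and a lower Qa share than both SW1990 libraries.

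**Figure D1:**
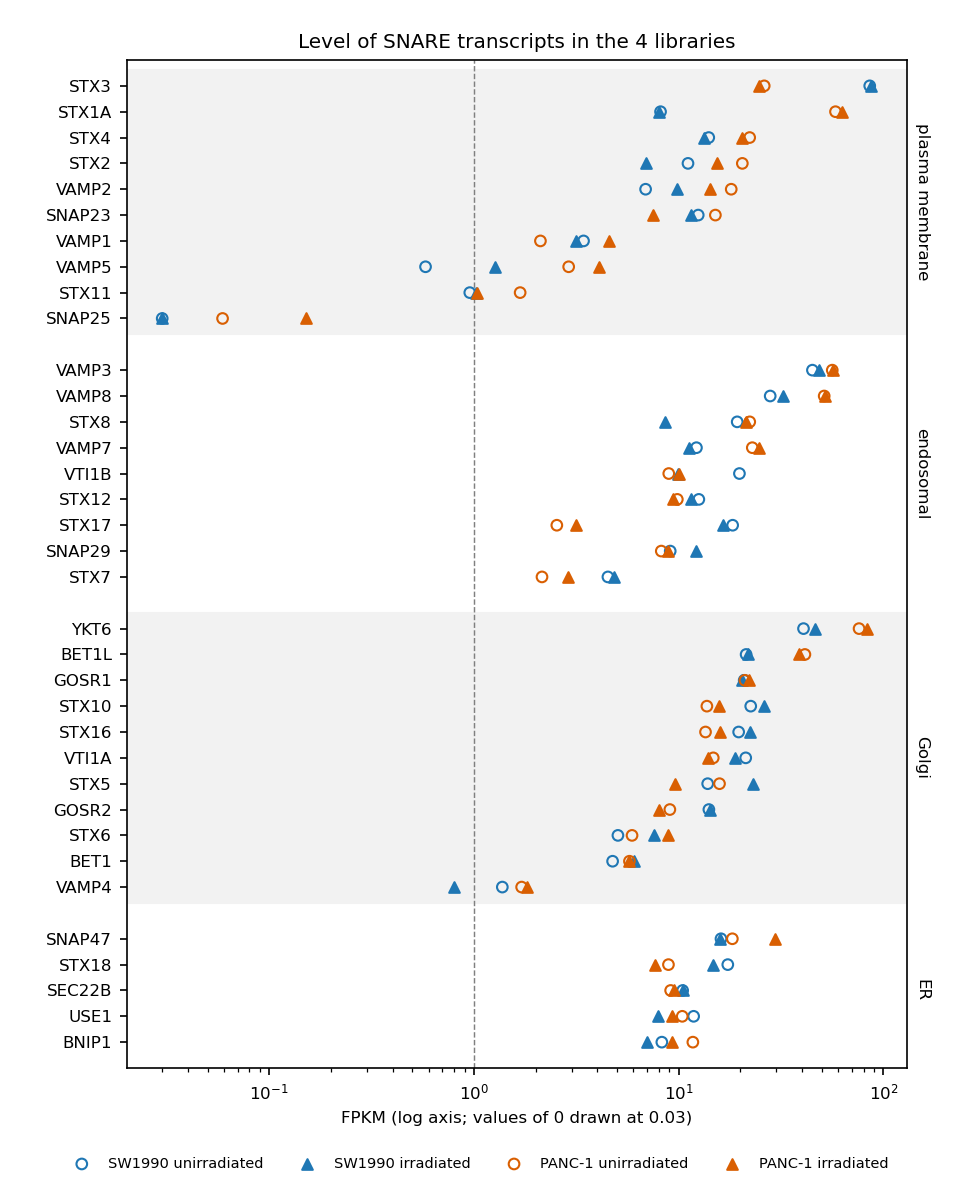
Level of 35 SNARE transcripts in 4 libraries, in FPKM on a log axis, grouped by compartment and ordered by mean FPKM within each. Circles are unirradiated and triangles irradiated libraries, and the dashed line is 1 FPKM. STX1A, YKT6 and VAMP8 lay higher in both PANC-1 libraries, STX3 and STX17 in both SW1990 libraries, and SNAP25 was at 0 FPKM in SW1990 cells.

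The first question was what 10 Gy did to SNARE transcripts within each line. Within a line, irradiated and unirradiated counts were compared by an exact conditional binomial test, with library sizes scaled by TMM (trimmed mean of M-values), over genes with at least 1 FPKM in at least 1 library. A gene was called at a q-value (Benjamini-Hochberg) under 0.001 and a fold change above 2. With 1 library per condition there was no replicate check: the test is one of 2 libraries rather than of 2 conditions, and each interval given is a 95% Clopper-Pearson interval that covers counting error only. Fewer cells of a type and less RNA per cell cannot be told apart in such libraries.

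In SW1990 cells, 0 of the 34 SNAREs tested were called, against 4.15% of all 15731 genes tested. Of the 34, 21 had higher and 13 lower counts after radiation, and the median log2 fold change was 0.07, against -0.01 over all genes. In FPKM these medians were -0.00 and -0.03. At a lower limit, a fold change above 1.5, 5 SNAREs were called, which is 14.7% of 34, against 9.29% of all genes: STX5, STX6, VAMP2 and SNAP23 were higher and STX8 was lower.

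In PANC-1 cells, 1 of 34 was called, VAMP1, against 4.7% of all 15159 genes tested. Here 11 had higher and 23 lower counts. Their median log2 fold change was -0.13, against -0.02 over all genes, and in FPKM it turned to 0.01, against 0.07 over all genes. At the lower limit 5 were called, again 14.7%, against 11.7% of all genes: VAMP1 and STX6 were higher, and STX5, VAMP2 and SNAP23 were lower. The shares of called SNAREs were thus below the background at a fold change above 2 and somewhat above it at 1.5, and 1 call of 34 makes up 2.94%. In PANC-1 cells the order at a fold change above 2 turned with the scaling. With DESeq2 size factors 2 of 34 were called, against 4.7% of all genes, and by fold changes in FPKM 2, against 4.42%.

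Across the lines, 18 of the 34 SNAREs moved in the same direction, 8 up and 10 down, and 16 (47.1%) in opposite directions. Among the 12813 genes tested in both lines, 45% moved in opposite directions. Intervals left out 0 in both lines with opposite signs for 7 SNAREs (20.6%), against 13.6% of all genes. Another 7 SNAREs had intervals that left out 0 in both lines with the same sign. Over all genes, intervals left out 0 in both lines for 4419, of which 1744 had opposite signs. The 7 SNAREs with opposite signs were STX5, SNAP23, VAMP2, VAMP1, STX17, VAMP3 and VAMP8. Across the 34 genes, which are not independent replicates and share the same 4 libraries, Pearson's r between the lines was -0.18 and Spearman's rho was -0.00, and over the 12813 genes they were 0.07 and 0.12.

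The SNAREs with opposite signs included 3 transcripts with higher counts in SW1990 and lower counts in PANC-1 cells, STX5, SNAP23 and VAMP2, and VAMP1 with the reverse. In FPKM the signs remained opposite for STX5, VAMP2 and VAMP1, while SNAP23 was at -0.11 in SW1990 cells. The first 3 act at different membranes: STX5 is the Qa-SNARE of ER-to-Golgi and intra-Golgi transport, SNAP23 the widely expressed Qbc-SNARE of the plasma membrane, and VAMP2 (synaptobrevin) an R-SNARE of secretory vesicles. To show the sequence at these genes, 30 bases around the match nearest upstream of the RefSeq start are given, 5′ to 3′ on the gene's strand in GRCh38.p14. The letters searched, on both strands, were GGGCGG, the core bound by SP1 and its relatives. Also searched were CCAAT, the box bound by NF-Y, and the E-box CACGTG. The capitals mark that match, and the VAMP2 stretch holds a further CCGCCC directly before it, in lower case. The STX5 stretch is at chr11:62832087-62832116, 53 bases before the start, on the minus strand, and the SNAP23 stretch at chr15:42495546-42495575, 76 bases before the start, on the plus strand. That of VAMP2 is at chr17:8162997-8163026, 138 bases before the start, and that of VAMP1 at chr12:6470738-6470767, 78 bases before it, both on the minus strand.
STX5: aaacgcgtgggaCCGCCCcctcgtcactgg
SNAP23: cccagcaccgtgATTGGctccagctgcagg
VAMP2: ggcgccccgcccCCGCCCgcagtgcccgga
VAMP1: tcctgggcatggATTGGgccgcggggttgt
Those of STX5 and VAMP2 hold GGGCGG on the opposite strand, and those of SNAP23 and VAMP1 hold CCAAT on the opposite strand. Only the nearest match is shown. From 250 bases before to 50 bases after the start, VAMP1 held 3 GGGCGG and 2 CCAAT, and STX5 3 and 1. In the same stretch VAMP2 held 5 GGGCGG and 0 CCAAT, and SNAP23 0 and 1. RefSeq promoters, from 250 bases before to 50 bases after the start, were found for 31 of the 35 members. BET1L, SNAP25, STX17 and USE1 had no entry. Of these 31, 22 (71.0%) held GGGCGG, against 45% of all 35116 promoters, 10 (32.3%) held CCAAT, against 34.6%, and 5 (16.1%) held CACGTG, against 7.26%. The median GC content was 65.3% in the members and 58.7% in all promoters, and the median number of CG dinucleotides was 26 and 14. The 35116 promoters were not filtered for expression in these cells, and 1 promoter was taken per member. The shares were thus not set against promoters of like GC content or of expressed genes. A match describes these letters and was not tested for binding, and the RefSeq start need not be the one used in these cells: the SNAP23, VAMP2 and VAMP1 stretches lie inside the gene's deposited range, and that of STX5 overlaps its end.

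STX5 (ENSG00000162236, chromosome 11 from 62806897 to 62832088, minus strand, GRCh38) was counted 421 times without and 761 times with radiation in SW1990, and 741 and 373 times in PANC-1. Its FPKM was 13.8, 23, 15.8 and 9.55. The irradiated library was the higher of the pair in SW1990 and the lower in PANC-1 cells. The log2 fold change was 0.85 (0.67 to 1.02) in SW1990 and -0.86 (-1.04 to -0.68) in PANC-1 cells. In FPKM it was 0.73 and -0.73. A locus that names no gene overlaps STX5 on the same strand, with 55, 31, 10 and 26 counts.

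SNAP23 (ENSG00000092531, chromosome 15 from 42491233 to 42545356, plus strand) had 300 and 477 counts in SW1990 and 492 and 227 in PANC-1 cells. The log2 fold change of counts was 0.66 (0.45 to 0.88) and -0.99 (-1.22 to -0.76). In FPKM, SNAP23 was at 12.5 and 11.5 in SW1990 and at 15.1 and 7.51 in PANC-1 cells, a log2 fold change of -0.11 and -1.01. The PANC-1 change was thus of about the same size on both scales, whereas the direction in SW1990 cells turned with the scale. The length implied by counts over FPKM went from 1.34 to 2.25 kb in SW1990 cells, and was 1.39 and 1.5 kb in PANC-1 cells. SNAP23 overlaps LRRC57 on the opposite strand, which had 817, 786, 1011 and 917 counts, and counting by strand was not stated in the sources used here.

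VAMP2 (ENSG00000220205, chromosome 17 from 8159149 to 8163546, minus strand) had 254 and 402 counts in SW1990 and 1063 and 552 in PANC-1 cells. The log2 fold change of counts was 0.66 (0.43 to 0.89) and -0.82 (-0.97 to -0.67), and that of FPKM 0.50 and -0.34. Its FPKM was 6.89, 9.77, 18 and 14.3, so that both PANC-1 libraries lay above both SW1990 libraries.

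VAMP1 (ENSG00000139190, chromosome 12 from 6462237 to 6470987, minus strand), a close relative of VAMP2, went the other way. It had 260 and 191 counts in SW1990 and 148 and 294 in PANC-1 cells, at 3.43, 3.17, 2.11 and 4.59 FPKM. In PANC-1 cells it rose 2.17-fold, or by 1.12 (0.83 to 1.42) on the log2 scale, and by 1.12 in FPKM as well. For SW1990 the log2 fold change was -0.45 (-0.73 to -0.18) in counts and -0.11 in FPKM. In counts scaled to the library, the 4 values interleave, with unirradiated PANC-1 cells lowest and irradiated PANC-1 cells highest. TAPBPL overlaps it on the opposite strand, with 105, 100, 32 and 25 counts.

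STX6, a Qc-SNARE of the trans-Golgi network and endosomes, was the member called in both lines at a fold change above 1.5 and in the same direction. It had 468 and 757 counts in SW1990 and 776 and 1066 in PANC-1 cells, with log2 fold changes of 0.69 (0.52 to 0.86) and 0.59 (0.45 to 0.72). In FPKM the changes were 0.58 and 0.59. Both irradiated libraries were above both unirradiated ones in FPKM, 7.57 and 8.87 against 5.05 and 5.92. A same-strand locus, AL162431.2, held 15, 12, 32 and 35 counts there.

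STX8, a Qc-SNARE of late endosomes, had 329 and 185 counts in SW1990 and 571 and 459 in PANC-1 cells. Radiation gave a log2 fold change of -0.84 (-1.11 to -0.57) in SW1990 and -0.18 (-0.37 to -0.00) in PANC-1 cells. In FPKM the SW1990 change was -1.18. The irradiated SW1990 library was the lowest of the 4 on both scales, at 8.54 FPKM against 19.3, 22.2 and 21.3 in the unirradiated SW1990, unirradiated PANC-1 and irradiated PANC-1 cells.

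STX17, the Qa-SNARE of autophagosomes, which pairs with SNAP29 and VAMP8 for fusion with lysosomes, had 800 and 618 counts in SW1990 and 125 and 167 in PANC-1 cells. Its log2 fold changes were -0.38 (-0.53 to -0.23) and 0.55 (0.20 to 0.89), and -0.16 and 0.31 in FPKM. VAMP8, which also acts in granule release of exocrine cells, had 475 and 561 counts in SW1990 and 1142 and 951 in PANC-1 cells, with log2 fold changes of 0.23 (0.05 to 0.41) and -0.13 (-0.26 to -0.01). VAMP3 (cellubrevin), the R-SNARE of recycling endosomes, had 1897 and 2202 counts in SW1990 and 3446 and 2982 in PANC-1 cells, with log2 fold changes of 0.21 (0.12 to 0.30) and -0.08 (-0.15 to -0.01). None of these 3 passed a fold change of 1.5, and in FPKM the PANC-1 changes of VAMP8 and VAMP3 were 0.01 and 0.02.

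**Figure D2:**
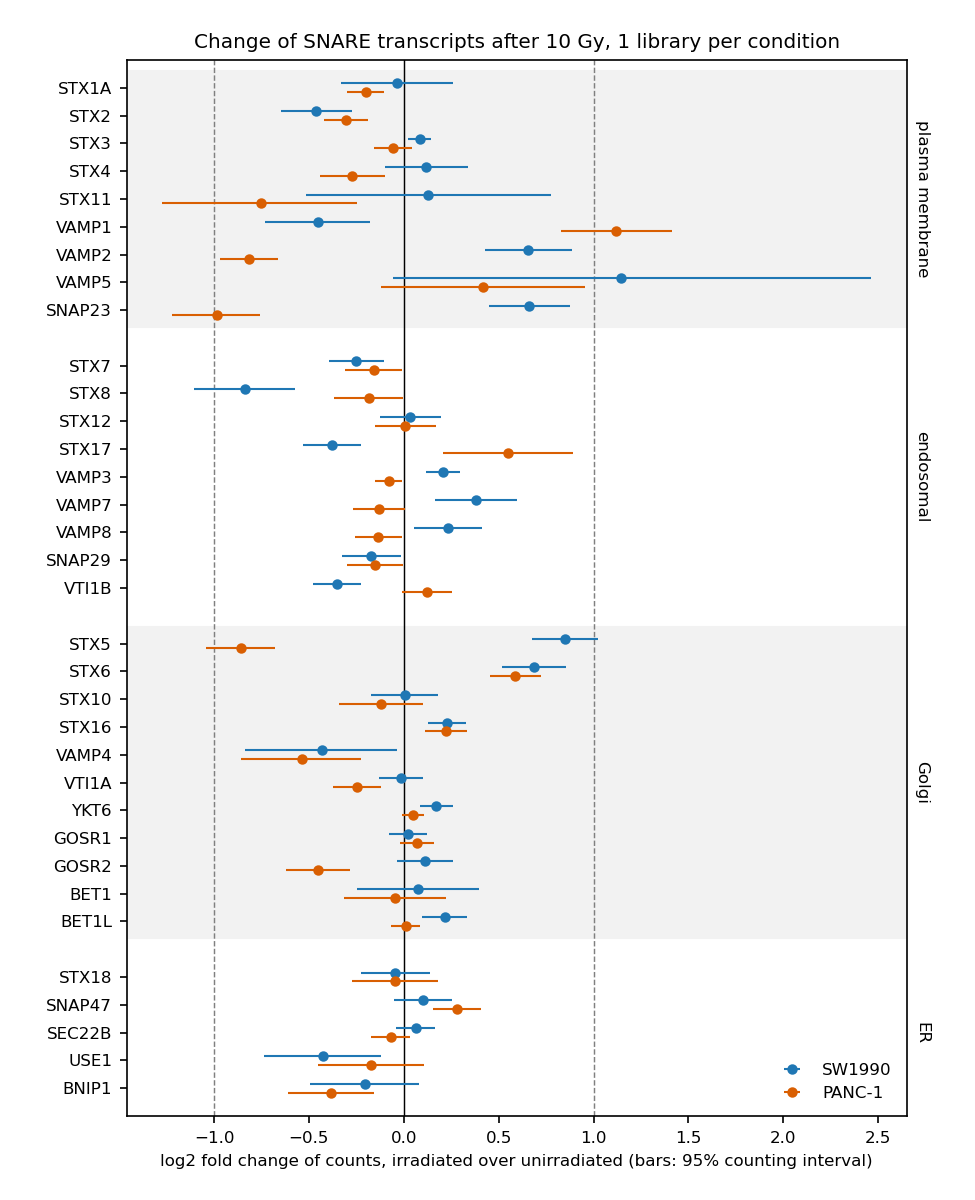
Change of 34 SNARE transcripts after 10 Gy in SW1990 and PANC-1 cells, as the log2 fold change of counts between 1 irradiated and 1 unirradiated library. Bars are 95% counting intervals and dashed lines mark a 2-fold change. STX5, SNAP23 and VAMP2 lie right of 0 in SW1990 and left of 0 in PANC-1 cells, VAMP1 the reverse, and STX6 lies right of 0 in both.

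The remaining plasma membrane SNAREs moved less or had few reads. STX3, the Qa-SNARE of the apical membrane of epithelia, had 4288 and 4566 counts in SW1990 and 1680 and 1476 in PANC-1 cells, a log2 fold change of 0.08 and -0.06. STX4, the Qa-SNARE of the basolateral membrane, had 331 and 361 counts in SW1990 and 650 and 492 in PANC-1 cells, a log2 fold change of 0.12 and -0.27. STX2, which acts at the plasma membrane and in cytokinesis, had 560 and 409 counts in SW1990 and 1424 and 1053 in PANC-1 cells, and was lower after radiation in both, with log2 fold changes of -0.46 and -0.31. STX11, known for granule release in cytotoxic lymphocytes, had 41 and 45 counts in SW1990 and 94 and 51 in PANC-1 cells, with a PANC-1 log2 fold change of -0.75 (-1.27 to -0.25). VAMP5 had 9 and 20 counts in SW1990 and 55 and 67 in PANC-1 cells, and its SW1990 log2 fold change of 1.15 had an interval from -0.05 to 2.46. In SW1990 cells VAMP5 and STX11 reached 1 FPKM only with radiation, and VAMP4 only without it. SNAP25, the Qbc-SNARE of neurons and endocrine cells, was counted 0 times in both SW1990 libraries and 4 and 7 times in PANC-1 cells. The 0 was taken as up to 3 expected counts in each SW1990 library (0.168 and 0.164 CPM, relative to the counts of the rows that name a gene). This is a set limit and not a certain bound. SNAP25 was not tested.

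Further endosomal and Golgi SNAREs were compared in the same way. VAMP7, an R-SNARE of late endosomes and of lysosome exocytosis, had 314 and 411 counts in SW1990 and 945 and 788 in PANC-1 cells, a log2 fold change of 0.38 and -0.13, which turned to -0.12 and 0.11 in FPKM. YKT6, a lipid-anchored R-SNARE of the Golgi, had 2036 and 2303 counts in SW1990 and 4903 and 4626 in PANC-1 cells, a log2 fold change of 0.17 and 0.05. BET1L, a Qc-SNARE that works with STX5 and YKT6 within the Golgi, had 1066 and 1243 counts in SW1990 and 2876 and 2645 in PANC-1 cells, a log2 fold change of 0.21 and 0.01. GOSR1, a Qb-SNARE of the same bundle, had 1606 and 1638 counts in SW1990 and 2051 and 1967 in PANC-1 cells, a log2 fold change of 0.02 and 0.07. STX10, a Qc-SNARE of the trans-Golgi network, had 521 and 525 counts in SW1990 and 375 and 315 in PANC-1 cells, a log2 fold change of 0.00 and -0.12. BET1L, GOSR1 and YKT6, the partners of STX5 within the Golgi, thus had log2 fold changes of at most 0.21 in either line, while STX5 itself had 0.85 and -0.86. GOSR2, a Qb-SNARE that pairs with STX5 in ER-to-Golgi transport and is named after its values were seen, had 746 and 810 counts in SW1990 and 711 and 475 in PANC-1 cells, with log2 fold changes of 0.11 and -0.45 (-0.62 to -0.28), the latter -0.18 in FPKM.

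In the ER group, SEC22B, an R-SNARE of ER-to-Golgi traffic, had 1498 and 1571 counts in SW1990 and 1691 and 1472 in PANC-1 cells, a log2 fold change of 0.06 and -0.07. STX18, the Qa-SNARE of retrograde transport from the Golgi to the ER, had 512 and 499 counts in SW1990 and 349 and 309 in PANC-1 cells, with log2 fold changes of -0.04 and -0.05. SNAP47, a Qbc-SNARE, had 664 and 716 counts in SW1990 and 977 and 1083 in PANC-1 cells, a log2 fold change of 0.10 and 0.28, and in FPKM the PANC-1 change was 0.70. The 11 tested members outside the naming rule had log2 fold changes between -0.43 and 0.23 in SW1990 and between -0.54 and 0.22 in PANC-1 cells, and STX1A is described with the lines below.

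Compared by compartment, the plasma membrane SNAREs had a median log2 fold change of 0.12 in SW1990 and -0.27 in PANC-1 cells, with 6 of 9 higher in the former, where FPKM turned the median to -0.03, and 7 of 9 lower in the latter, where it was -0.30 by DESeq2 size factors, -0.18 by total counts and -0.13 in FPKM. The endosomal SNAREs had medians of -0.17 and -0.13, with 5 and 6 of 9 lower. The SW1990 median was -0.01 with the trans-Golgi SNAREs counted as endosomal, and the PANC-1 median was -0.04 by total counts and turned to 0.11 in FPKM. The Golgi SNAREs had medians of 0.11 and -0.04, with 9 of 11 higher in SW1990 and 5 of 11 higher in PANC-1 cells, where total counts turned the median to 0.04 and FPKM to 0.06. In FPKM the Golgi median of SW1990 cells was 0.19. The ER SNAREs had medians of -0.04 and -0.07 over 5 genes, which in FPKM were -0.24 and -0.16, and the PANC-1 median was 0.02 by total counts. The ranges of the compartments overlapped in both lines, and differences between compartments were not tested, since the members are not replicates of a condition.

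Summed over members, counts of plasma membrane SNAREs went from 7519 to 5736 in PANC-1 cells, a log2 fold change of -0.26 (-0.31 to -0.21), which was -0.17 by total counts and -0.11 in FPKM. In SW1990 cells they went from 6237 to 6661, at 0.09 (0.04 to 0.14), and at 0.06 by total counts and -0.01 in FPKM. Golgi counts went from 9888 to 11296 in SW1990 cells, at 0.19 (0.15 to 0.22), and from 15356 to 14089 in PANC-1 cells, at 0.01 (-0.03 to 0.04), or 0.10 by total counts. Endosomal counts gave -0.06 (-0.11 to -0.02) in SW1990 and -0.07 (-0.11 to -0.03) in PANC-1 cells, and in FPKM -0.12 and 0.03. The PANC-1 value also turned by total counts, to 0.02. In FPKM the plasma membrane sums went from 143 to 142 in SW1990 and from 167 to 155 in PANC-1 cells. The largest single contribution to the plasma membrane sum of SW1990 cells was STX3, with 4288 of 6237 counts without radiation.

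**Figure D3:**
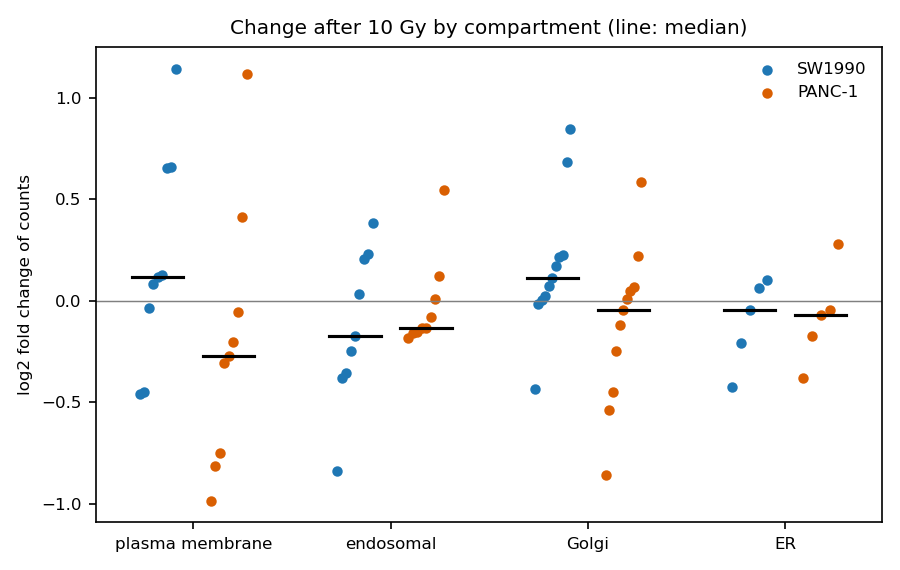
Log2 fold change of counts after 10 Gy for 34 SNARE genes by compartment, with each point a gene and each black line the median. Plasma membrane SNAREs have medians of 0.12 in SW1990 and -0.27 in PANC-1 cells, and the points of all 4 compartments overlap.

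The deposited FPKM gave another direction than the counts for 8 of 34 SNAREs in SW1990 and 11 of 34 in PANC-1 cells. The log2 fold changes differed by more than 0.5 for 3 SNAREs in SW1990 cells, SNAP23, VTI1B and SNAP29, and for 2 in PANC-1 cells, STX7 and VAMP4. Apart from SNAP23, these are named after their values were seen. VTI1B, a Qb-SNARE of late endosomes, had 1165 and 916 counts in SW1990 cells and 19.8 and 9.92 FPKM, a log2 fold change of -0.35 in counts and -0.997 in FPKM. SNAP29, the Qbc-SNARE of autophagosome fusion, had 713 and 636 counts in SW1990 cells and 9.09 and 12.1 FPKM, or -0.17 and 0.41. STX7, the Qa-SNARE of late endosomes, had 807 and 661 counts in PANC-1 cells and 2.15 and 2.88 FPKM, or -0.16 and 0.42. VAMP4, an R-SNARE of the trans-Golgi network, had 221 and 139 counts in PANC-1 cells and 1.71 and 1.81 FPKM, or -0.54 and 0.08. The length implied by counts over FPKM went from 3.28 to 5.02 kb for VTI1B, from 4.37 to 2.86 kb for SNAP29, from 16.0 to 11.4 kb for STX7 and from 5.51 to 3.81 kb for VAMP4 within these pairs. PI4KA overlaps SNAP29 on the opposite strand, with 2947 and 2726 counts in SW1990 cells, and ARG2 overlaps VTI1B likewise, with 299 and 382. STX7 and VAMP4 had no such overlap. Reads shared with an overlapping gene were not tested, since counting by strand was not stated. A shift in the transcripts that carry the reads was not tested either, since values per transcript were not used here.

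**Figure D4:**
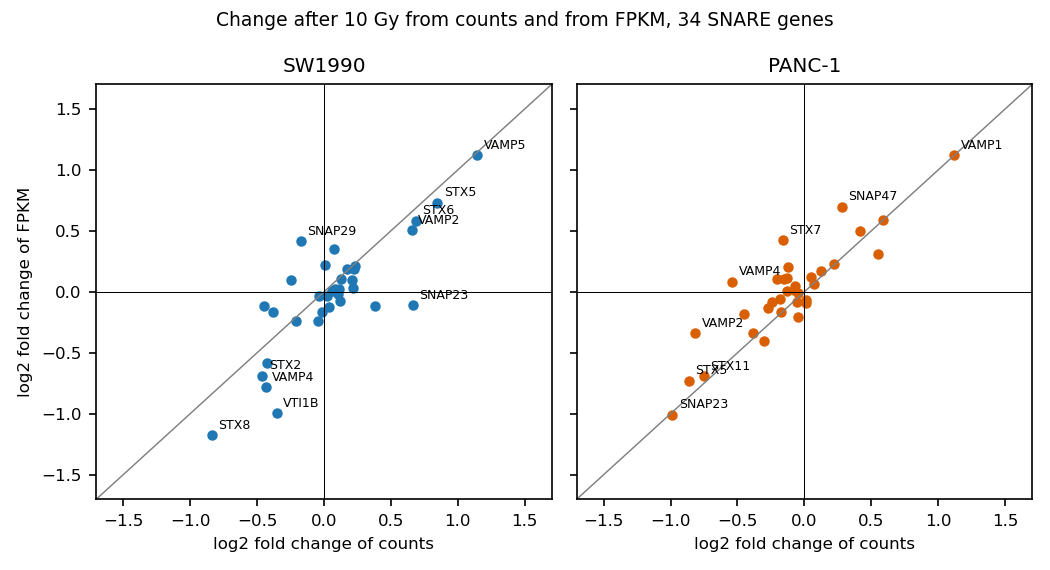
Log2 fold change of FPKM against log2 fold change of counts after 10 Gy, for 34 SNARE genes in SW1990 (left) and PANC-1 (right) cells, with the grey diagonal marking equal values. VAMP1 and SNAP23 in PANC-1 and STX5 in SW1990 cells lie near the diagonal, while SNAP23 in SW1990 cells is at 0.66 in counts and -0.11 in FPKM.

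The 4 libraries were then fitted together by edgeR's quasi-likelihood test with terms for line and treatment. In this fit the spread rests on 1 residual degree of freedom, which is the part of the radiation response that differs between the lines. The p-values measure only the spread between these 4 libraries, since separate cultures are not named in the labels. For radiation over both lines, 0 of 34 SNAREs and 0% of all 18180 genes passed an adjusted p of 0.05. At an unadjusted p under 0.05 there were 1 SNARE and 833 genes, and DESeq2 called 0 SNAREs and 39 genes. The SNARE was STX6, higher after radiation in both lines, with a log2 fold change of 0.65 in edgeR's test and an adjusted p of 0.936.

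The second question was how the SNARE transcripts of PANC-1 cells differ from those of SW1990 cells. In the same fit, 13 of 34 SNAREs (38.2%) passed an adjusted p of 0.05, 9 higher and 4 lower in PANC-1 cells, against 43.6% of all 18180 genes. In this fit the share of SNAREs that differ between the lines is thus near the background. DESeq2 called 9 of 34 SNAREs, against 33.7% of all genes. Leaving out 1 library lowered the count of SNAREs and that of all genes, as given with the processing below. By class, 5 of 9 R-SNAREs were higher and 0 lower in PANC-1 cells, and the median of the 9 was 0.91 on the log2 scale. Of these 5, VAMP3, VAMP5 and VAMP8 were lost in some of the alternative fits given below. Among 11 Qa-SNAREs, 2 were higher and 3 lower, with a median of -0.21. Among 6 Qc-SNAREs, 2 were higher and 1 lower, with a median of 0.45. Over all genes, 4031 were higher and 3890 lower. None of the 5 Qb-SNAREs and 3 Qbc-SNAREs tested passed.

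STX1A, the Qa-SNARE of regulated secretion in neurons and endocrine cells, differed most. It lies at chromosome 7 from 73699206 to 73719672 on the minus strand and had 194 and 190 counts in SW1990 and 1909 and 1517 in PANC-1 cells, at 8.15, 7.98, 58.3 and 62.7 FPKM. The log2 fold change was 3.04 ± 0.17 (SE), or 8.22-fold, with an adjusted p of 0.000999 by edgeR. It was 3.14 between the unirradiated and 2.95 between the irradiated libraries. After radiation STX1A had log2 fold changes of -0.04 in SW1990 and -0.20 in PANC-1 cells, and 0.11 in FPKM in the latter. BUD23 overlaps it on the opposite strand, with 1069, 1474, 1493 and 1594 counts.

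STX3, at chromosome 11 from 59755059 to 59805882 on the plus strand, was lower in PANC-1 cells by a log2 fold change of -1.60 ± 0.14 (SE), or 3.03-fold, with an adjusted p of 0.00221 by edgeR. Its FPKM was 85.7 and 87.2 in SW1990 and 26.2 and 24.7 in PANC-1 cells. STX3 was thus the highest Qa-SNARE of the plasma membrane group in both SW1990 libraries, and STX1A in both PANC-1 libraries. STX2 was higher in PANC-1 cells by 1.25 ± 0.16 (SE), with an adjusted p of 0.00544 by edgeR.

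STX17, at chromosome 9 from 99906633 to 99970341 on the plus strand, was lower in PANC-1 cells by a log2 fold change of -2.39 ± 0.30 (SE), or 5.23-fold, with an adjusted p of 0.00508 by edgeR. Its FPKM was 18.3 and 16.4 in SW1990 and 2.54 and 3.15 in PANC-1 cells, and the pairs did not overlap. Of its partners, VAMP8 was higher in PANC-1 cells by 0.91 ± 0.18 (SE), and SNAP29 differed by 0.10 ± 0.16 (SE), with an adjusted p of 0.638 by edgeR.

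The other R-SNAREs higher in PANC-1 cells were VAMP5, VAMP7, YKT6 and VAMP3, with log2 fold changes of 2.03, 1.16, 1.03 and 0.54. YKT6 was at 40.7 and 46.4 FPKM in SW1990 and at 76.0 and 82.9 FPKM in PANC-1 cells, the most abundant SNARE of the PANC-1 libraries. The Qc-SNAREs BET1L and STX8 were higher by 1.15 and 0.94, and STX10 was lower by -0.71. The STX8 call was kept in 1 of 8 alternative fits, and its log2 fold change was 0.55 without the irradiated SW1990 library, with an adjusted p of 0.204 by edgeR. STX18 was lower by -0.73, and STX18-AS1 on its opposite strand had 114, 75, 19 and 21 counts. Of the 13, BET1L, STX17, STX1A, STX3, VAMP7 and YKT6 also passed in each of the 8 alternative fits, which included leaving out each library in turn, and the other 7 were lost in at least 1 of them. Apart from STX8, these were STX10, STX18 and VAMP3, which passed in 2 of the 8, VAMP5 in 3, VAMP8 in 6 and STX2 in 7.

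VAMP2, STX5, SNAP23 and VAMP1 did not pass between the lines, and their standard errors were 0.40 to 0.45. Their counts moved in opposite directions after radiation (in FPKM SNAP23 was lower in both lines). Such a difference of response is the spread of this fit, so these standard errors are tied to the choice of these genes. VAMP2 was higher in PANC-1 cells by 1.91 (1.71 to 2.11) between the unirradiated and by 0.41 (0.22 to 0.60) between the irradiated libraries. STX5 was 0.66 higher in PANC-1 cells without radiation and 1.08 lower with it, on the log2 scale, and SNAP23 0.56 higher and 1.12 lower. The order of the lines for STX5, SNAP23 and VAMP1 therefore depended on the treatment of the libraries compared.

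**Figure D5:**
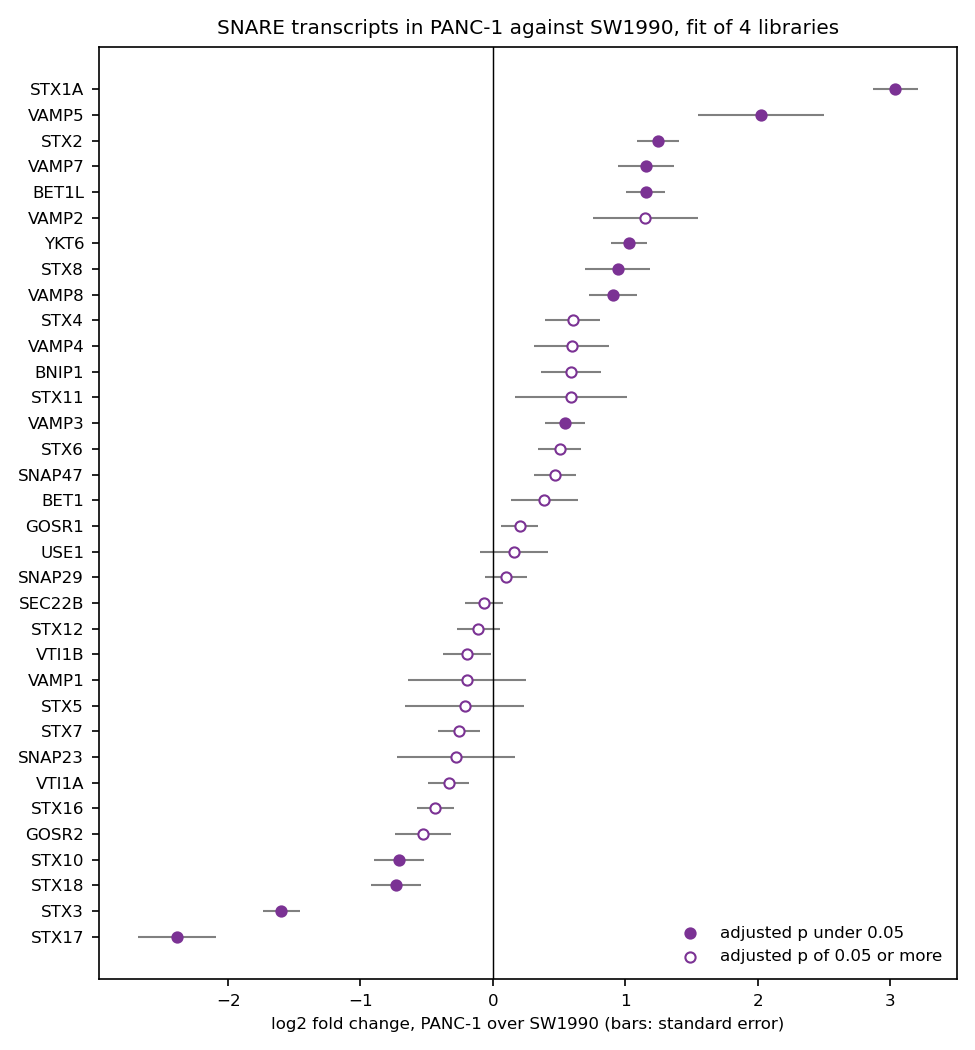
Log2 fold change of 34 SNARE genes in PANC-1 over SW1990 cells, from the edgeR fit of 4 libraries, with standard errors as bars. Filled points have an adjusted p under 0.05. STX1A at 3.04 and STX17 at -2.39 are the ends of the range, and the bars of STX5, SNAP23, VAMP1 and VAMP2 are among the widest.

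Of 85 genes that regulate SNAREs or resemble them, 63 were tested in SW1990 and 60 in PANC-1 cells. In SW1990 cells 32 were higher and 31 lower, with a median log2 fold change of 0.00, and 1 (1.59%) was called, SYT17, against 4.15% of all genes. In PANC-1 cells 34 were higher and 26 lower, with a median of 0.04, and 2 (3.33%) were called, DOC2A up and SYT1 down, against 4.7% of all genes. All 3 belong to the calcium sensors and priming factors, which act just before the SNARE bundle closes and of which 13 and 10 genes of 29 were tested. SYT17 in SW1990 (0.648 and 1.55 FPKM) and DOC2A in PANC-1 cells (0.308 and 1.7 FPKM) reached the minimum of 1 FPKM only in the irradiated library, so that their calls follow in part from that minimum. SYT1, the calcium sensor of fast vesicle release, had 3041 and 1217 counts in PANC-1 cells, a log2 fold change of -1.19 (-1.29 to -1.09), and 0 and 2 counts in SW1990 cells. DOC2A, a calcium sensor with C2 domains, had 18 and 54 counts in PANC-1 cells, a log2 fold change of 1.72 (0.92 to 2.57), and 97 and 121 in SW1990 cells. SYT17 had 39 and 90 counts in SW1990 cells, or 1.20 (0.64 to 1.78) on the log2 scale, and 108 and 86 in PANC-1 cells.

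No gene of the other regulator lists was called in either line at a fold change above 2. The SM proteins, which clasp the SNARE bundle, had medians of -0.04 in SW1990 and 0.17 in PANC-1 cells over 8 genes. Of these, VPS45 had log2 fold changes of -0.26 and 0.23, and SCFD2 -0.03 and 0.37. The disassembly factors had medians of 0.10 and 0.08 over 4 genes, with NAPG, a SNAP cofactor of the ATPase NSF, at 0.00 and 0.60 and NAPB at -0.26 and -0.15. In the complexin and tomosyn list 2 of 7 genes were tested in each line, and STXBP5, a tomosyn with an R-SNARE motif, had log2 fold changes of -0.15 and -0.38. It was the only gene of that list tested in both lines.

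The tethers, which hold vesicles before fusion, had medians within 0.16 of 0 in both lines. The exocyst, which tethers vesicles at the plasma membrane, had medians of 0.01 and -0.06 over 9 genes, with EXOC3 at 0.19 and 0.61 and EXOC7 at 0.16 and 0.32. For HOPS and CORVET, the tethers of late and early endosomes, medians were -0.09 and 0.01 over 7 genes, with VPS18 at 0.45 and 0.41 and VPS39 at 0.13 and -0.32. GARP and EARP, which tether at the trans-Golgi network and recycling endosomes, had medians of 0.04 and -0.02 over 5 genes, with VPS54 at -0.27 and -0.49 and VPS52 at -0.39 and -0.02. The Golgi tether COG had medians of -0.16 and 0.16 over 8 genes, with COG8 at -0.30 and 0.35 and COG4 at -0.12 and 0.43. The ER tether Dsl1 (NRZ), had medians of -0.05 and -0.04 over 3 genes, with ZW10 at -0.22 and 0.10 and RINT1 at 0.11 and -0.07. Among other SNARE-like genes 4 of 5 were tested, with TSNARE1 at -0.46 and 0.53.

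Between the lines, 12 of 73 regulators were higher and 19 lower in PANC-1 cells by edgeR's adjusted p, together 42.5%, against 43.6% of all genes. Of the 21 calcium sensors and priming factors tested, 7 were higher and 9 lower in PANC-1 cells, several of which have counts almost only in the line where they are high and entered the fit through it, so that this count is a description. The genes given here for this list are named after their values were seen. CADPS, a priming factor of dense-core vesicles, had 1027 and 1313 counts in SW1990 cells and 0 in both PANC-1 libraries, and SYT9, a calcium sensor, had 0 in both SW1990 libraries and 818 and 730 counts in PANC-1 cells. A count of 0 was taken as up to 3 expected counts in a library, which is a set limit and not a certain bound. SYT1, given above, was likewise almost without counts in SW1990 cells. UNC13D, a priming factor of granule release, had 2099 and 3033 counts in SW1990 and 241 and 254 in PANC-1 cells, and was lower in the latter by a log2 fold change of -3.46 ± 0.18 (SE), with an adjusted p of 0.000911 by edgeR. In the complexin and tomosyn list, STXBP6, named after its values were seen, had 192 and 202 counts in SW1990 cells and 0 in both PANC-1 libraries. STXBP5 was higher in PANC-1 cells by 1.36 ± 0.15 (SE) on the log2 scale, with an adjusted p of 0.00402 by edgeR.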

How the data were processed

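RNA of 4 libraries, 1 per line and treatment, was taken from the samples' labels. The labels describe rRNA depletion and the methods an mRNA kit. Per the submitters' processing notes and the methods, the authors trimmed reads with Trimmomatic 0.36, aligned them to GRCh38 with HISAT2 2.0 and computed the deposited FPKM values with StringTie 1.3.3b. The authors deposited unnormalized read counts per gene, and the tool that made these counts and its use of strand are not given in the sources used here. Of 59263 rows, 58174 name a gene, and the 1089 others (0.453% to 0.635% of the counts) were left out.

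Counts were tested per line by an exact conditional binomial test (scipy 1.17.1) with TMM sizes, a CPM of 0 set to 0.01 and Benjamini-Hochberg adjustment over all genes with at least 1 FPKM in either library. The methods name DESeq2 1.12.4 for this step. All 4 libraries were fitted by edgeR 4.0.16 (glmQLFit, glmQLFTest, filterByExpr, R 4.3.3), where the common coefficient of variation was 0.218. DESeq2 1.42.0, other scalings, filters and fold limits, FPKM folds and left-out libraries were the alternatives. The scripts were tested on counts with known changes. Members, compartments and lists were set by hand with earlier results of these data known, and so were the motifs and promoters shown. Named with every library's value were the members called in any comparison or beyond a 1.5-fold change with an interval that leaves out 0, and the 3 highest by FPKM in each compartment. Of each regulator list, those called or else the 2 with the largest mean change were named, except 1 gene that is not reported here. An overlap means a row with at least 20 counts in a library.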

Additional observations from a re-analysis of the deposited data

Results flagged for a closer look

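The response to 10 Gy had opposite signs in the lines, with counting intervals that left out 0 in each, for 7 SNAREs and for 4 sums of counts. With 1 library per line and treatment, the difference between the lines was not tested. The log2 fold change in SW1990 minus that in PANC-1 cells was 1.71 for STX5, 1.65 for SNAP23 and 1.47 for VAMP2. It was -1.57 for VAMP1 and -0.93 for STX17. VAMP8 and VAMP3 had the small differences of 0.37 and 0.29. For summed counts the difference was 0.14 over all 35 members, 0.35 over plasma membrane SNAREs, 0.19 over Qa-SNAREs and 0.24 over R-SNAREs. Among the genes, SNAP23, VAMP3 and VAMP8 lost the opposite signs in FPKM, and VAMP3 also by total counts. Among the sums, the R-SNAREs lost them by total counts and in FPKM, all members by total counts, and the plasma membrane SNAREs in FPKM, while all members were within 0.01 of 0 in FPKM. Of all genes tested in both lines, 13.6% had opposite signs by the same measure, and another 7 SNAREs had the same sign by it.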

How the results depend on the processing

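With 1 library per condition, depth limits the intervals, widest for VAMP5 and STX11, and culture to culture variation has no estimate. In SW1990 cells, FPKM folds gave 1 call (STX8) in place of 0, and a fold limit of 1.5 gave 5. In PANC-1 cells, DESeq2 size factors gave 2 calls and FPKM folds 2 in place of 1, in both cases with SNAP23 added, a fold limit of 1.5 gave 5, and a minimum of 5 FPKM, which VAMP1 does not reach, gave 0. By FPKM the median log2 fold change of ER SNAREs in SW1990 cells was -0.24 and that of endosomal SNAREs in PANC-1 cells 0.11. Alternatives were run for the 23 members named by the rule, and of those whose interval left out 0, FPKM reversed the direction of VAMP7 (-0.12) and SNAP23 (-0.11) in SW1990 cells and of STX1A (0.11), VAMP3 (0.0184) and VAMP8 (0.0063) in PANC-1 cells, and total counts that of VAMP3 (0.0112) in PANC-1 cells. The others were compared only between counts and FPKM. Of the summed counts, by alternatives added after the data were seen, FPKM reversed all members (-0.000853) and plasma membrane SNAREs (-0.011) in SW1990 cells and all members (0.00862), endosomal SNAREs (0.0347) and R-SNAREs (0.059) in PANC-1 cells, and total counts reversed all members (0.0228), endosomal SNAREs (0.019) and R-SNAREs (0.0222) in PANC-1 cells. The sums of ER, Qb, Qc and Qbc SNAREs are not reported. Total counts moved the median of all genes in PANC-1 cells from -0.02 to 0.07, and the calls over all genes from 359 higher and 354 lower to 460 and 280, or 405 and 265 by FPKM. Between the lines, 8 SNAREs in place of 13 passed with no filter on low counts, as did 6105 of 30227 genes, and 8 with a fold change above 2, as did 32.9% of all genes. Leaving out each library in turn, with the lone sample of a line assumed to vary like the other line, gave 6 (without unirradiated PANC-1, where 30.4% of all genes passed) to 10 (without irradiated SW1990, where 32.5% passed). DESeq2 gave 9 of 34 and 6124 genes. The labels give no replicate numbers, and the fit for radiation over both lines is blocked by line. With the trans-Golgi SNAREs counted as endosomal, the endosomal median in SW1990 cells went from -0.17 to -0.01. The other alternatives for counts of calls, among them the rows that name no gene, kept these within 1.5 times.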
